A study of Drosophila melanogaster with 2 samples.

Results

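The genes examined here encode the nuclear subunits of oxidative phosphorylation, and the question is where toy-eGFP peaks lie at them. They were taken by symbol: every nuclear protein-coding gene whose name starts with ND- (complex I), Sdh (complex II), UQCR (complex III), COX (complex IV) or ATPsyn (complex V). This gave 88 of the 13968 protein-coding genes on the chromosome arms, 40 of them in complex I, 8 in complex II, 9 in complex III, 16 in complex IV and 15 in complex V. By the same rule 24 of the 88 are paralogs whose symbols end in L ("like") or L and a number, such as SdhAL and ND-51L1, and Sdhaf3 is an assembly factor rather than a subunit. The data are chromatin immunoprecipitation sequencing (ChIP-seq) peak lists on Drosophila melanogaster embryos, taken whole at 0 to 24 h of age, in 2 biological replicates. Both came from 1 transgenic strain that makes the transcription factor toy (twin of eyeless), a relative of Pax6, as a fusion to eGFP. Chromatin was recovered with an antibody against GFP. There is 1 group and no contrast, and untagged embryos were not analysed here. The sources used here do not give what drives the transgene, and a peak list cannot show which cells of the embryo gave a peak.

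Oxidative phosphorylation is the last stage of aerobic energy metabolism, in which electrons from NADH and succinate pass along complexes I to IV of the inner mitochondrial membrane. The protons pumped on the way drive the ATP synthase, which is complex V. Most of its subunits are encoded in the nucleus and are needed in nearly every cell, so promoters of the housekeeping kind are common among their genes. This need not hold for the 24 members named as paralogs. Pax6-type proteins are known for eye and brain development, not for this pathway.

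Most of the peaks described below lie at or next to a short stretch between a subunit gene and a second gene that is read the other way. The sequence under 5 of them is printed. These are the peak assigned to ND-ASHI in the conservative list and the pooled sites whose 201 bp window held a searched motif. Windows of the other sites, which held none, are not printed. The summits of ND-ASHI, ND-51 and ND-SGDH fall between the paired start sites, and those of ND-24 and ATPsynE just inside the subunit gene. All are from the plus strand of the RefSeq sequence of dm6. The sequence of ND-ASHI is the whole 162 bp peak of the conservative list (chrX:6679297-6679458), and its 30 capitals run from the summit of that list to the summit in replicate 2. The others are 201 bp centred on the summit of the pooled list, at chrX:17632070-17632270 for ND-24, chr2L:6062773-6062973 for ND-51, chr3L:12138578-12138778 for ND-SGDH and chr3R:14326884-14327084 for ATPsynE. Their capitals mark the motifs described further on: a homeodomain core in ND-24 and ND-51, an NRG element in ND-SGDH and a DRE in ATPsynE.
ND-ASHI: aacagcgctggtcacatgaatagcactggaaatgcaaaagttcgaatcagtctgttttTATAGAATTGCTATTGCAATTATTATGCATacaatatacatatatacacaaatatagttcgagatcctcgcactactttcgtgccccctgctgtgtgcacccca
ND-24: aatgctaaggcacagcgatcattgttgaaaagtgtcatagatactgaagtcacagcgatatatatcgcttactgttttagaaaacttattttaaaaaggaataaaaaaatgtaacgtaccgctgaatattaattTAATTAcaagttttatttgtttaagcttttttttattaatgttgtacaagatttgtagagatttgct
ND-51: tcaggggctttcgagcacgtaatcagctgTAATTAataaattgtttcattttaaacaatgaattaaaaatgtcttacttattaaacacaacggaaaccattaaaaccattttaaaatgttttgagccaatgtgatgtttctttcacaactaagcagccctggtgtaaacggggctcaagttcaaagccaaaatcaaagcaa
ND-SGDH: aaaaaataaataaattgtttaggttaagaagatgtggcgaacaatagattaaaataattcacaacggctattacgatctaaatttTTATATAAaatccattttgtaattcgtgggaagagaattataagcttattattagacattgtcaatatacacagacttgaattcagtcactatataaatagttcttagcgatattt
ATPsynE: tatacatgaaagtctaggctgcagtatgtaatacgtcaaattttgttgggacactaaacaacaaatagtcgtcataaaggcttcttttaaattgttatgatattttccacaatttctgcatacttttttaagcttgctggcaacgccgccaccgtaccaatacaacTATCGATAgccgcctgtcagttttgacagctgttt

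Few of the 88 genes carried a peak that repeated between the replicates. A peak belongs to the protein-coding gene whose transcription start site (TSS) is nearest to its summit, and to each gene where the distance is tied. In the conservative list, which holds peaks that rank alike in both replicates at an irreproducible discovery rate (IDR) of at most 0.01, a single member had a peak. That is 1.14% of 88 (Wilson 95% interval 0.201 to 6.16%), where 8.25% of all protein-coding genes had one. The member is ND-ASHI in complex I, and complexes II, III, IV and V had 0. In the pooled list, the less strict list made from both replicates, 7 members had a peak (7.95%, interval 3.91 to 15.5%), against 10.6% of all genes. Of these 7, 4 belong to complex I, 1 to complex IV and 2 to complex V. In replicate 1 alone 3 members had a thresholded peak (3.41%, against 5.63% of all genes), and in replicate 2 alone 1 did (1.14%, against 6.63%). By nearest TSS 0 members had a thresholded peak in both replicates (Wilson 95% upper limit 4.18%), against 3.94% of all genes, although at ND-ASHI both replicates had one at the same place.

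The count depended on how a peak between neighbouring genes is shared out. When any summit within 500 bp of a member's TSS was counted, even where another gene was nearer, 2 members had a conservative peak (2.27%, Wilson 95% interval 0.625 to 7.91%; all genes 6.61%) and 8 had a pooled one (9.09%, interval 4.68 to 16.9%; all genes 8.25%). Of the shares in the conservative and pooled lists, the interval of the assigned conservative one lies below the share of all genes, and the intervals of the other 3 include it. In replicate 2 alone the interval of 0.201 to 6.16% also lies below its 6.63%, and in replicate 1 that of 1.17 to 9.55% includes its 5.63%. The members are shorter than most genes, with a median length of 1097 bp against 2165 bp, and how far this bears on the counts was not tested. They do not lie far from conservative peaks: the median distance from a member to the nearest conservative summit was 15504 bp, against 26886 bp over all genes, and 19 members (21.6%) had one within 5 kb, against 16.9%.

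**Figure D1:**
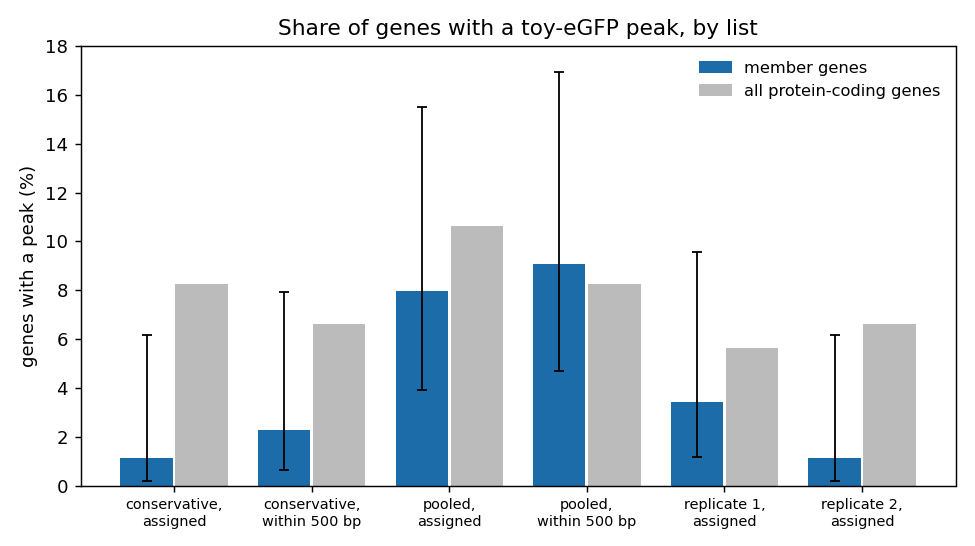
Percent of the 88 member genes (blue, with Wilson 95% intervals that cover counting error only) and of all 13968 protein-coding genes (grey) with a peak, for each thresholded list and each way of counting. The blue bar is at 1.14% beside a grey bar at 8.25% for assigned conservative peaks, and at 9.09% beside 8.25% for pooled summits within 500 bp.

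The strongest peak at any member, and the one member peak in the conservative list, lies between ND-ASHI and Fum1. ND-ASHI (FBgn0029888; X, 6677262 to 6679118, minus strand, dm6) encodes an accessory subunit of the membrane arm of complex I. Fum1 encodes fumarase, the tricarboxylic acid (TCA) cycle enzyme that takes up the product of complex II. Their TSSs lie 522 bp apart and face away from each other, with the peak between them. Its signal value, in the authors' units, was 155 in replicate 1 and 130.5 in replicate 2, both past the replicate's own threshold. The lists made from both replicates give 293, which ranks 107 of 1404 conservative peaks, where the median over the list is 106. The log2 ratio of replicate 2 to replicate 1 was -0.25, within the SD of 0.46 about a median of 0.04 over 1388 conservative peaks found in both replicates. The summit of the conservative list was 237 bp upstream of the ND-ASHI TSS and 285 bp upstream of the Fum1 TSS. In replicate 2 it stood 19 bp further from ND-ASHI than in replicate 1, which made Fum1 the nearer gene by 10 bp. With summits this close to the midpoint, the lists do not show to which of the 2 genes the peak belongs.

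Other complex I peaks passed in the pooled list but not in the conservative one, and each passed the threshold of 1 replicate alone. ND-24 (FBgn0030853; X, 17632089 to 17633509) encodes an iron-sulfur subunit of the NADH-oxidizing part of complex I. Its peak had a signal value of 115 in the pooled list and 57.2 in replicate 1 (rank 622 of 925), while replicate 2 had no ranked peak there. The summit was 81 bp downstream of the upstream TSS of ND-24 and 123 bp upstream of corolla, a gene of the meiotic synaptonemal complex. ND-51 (FBgn0031771; 2L, 6060842 to 6062757) encodes the subunit that binds NADH and FMN. There the order of the replicates was the reverse, with 55.4 in replicate 2 (rank 718 of 1098) and 23.3 in replicate 1, and 86.4 in the pooled list. The pooled summit lay 116 bp from the TSS of ND-51 and equally far from that of CG13994, and the summit of replicate 2 was nearer to CG13994. ND-SGDH (FBgn0011455; 3L, 12137496 to 12138584), an accessory subunit gene, was like ND-51, with 54.5 in replicate 2, 23.3 in replicate 1 and 84.1 in the pooled list. The summit was 94 bp upstream of its TSS and 190 bp upstream of RhoGAP68F. At ND-51 and ND-SGDH the IDR between the replicates was 0.0642 and 0.0658, above the threshold of 0.01.

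The summits of a further pair of sites lay within 500 bp of a complex I gene but nearer to its neighbour. ND-MWFE (FBgn0085468; 2R, 13158666 to 13160190) encodes a small membrane subunit, and TppII, a tripeptidyl peptidase gene, starts 221 bp away on the other strand. Between them was a conservative peak with a signal value of 134, 19 bp from the TSS of TppII and 202 bp from that of ND-MWFE, with 48.3 in replicate 1 and 84.2 in replicate 2. Only replicate 2 passed its own threshold. ND-42 (FBgn0019957; 3R, 22027709 to 22029393) encodes another accessory subunit and starts 229 bp from Cchl, which encodes the lyase that attaches haem to cytochrome c. Their shared pooled peak had a signal value of 70.2, with 36.9 in replicate 1 and 30.9 in replicate 2, neither past its threshold, and the summit lay 57 bp inside Cchl.

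In complex V both members with a peak fell just short of the conservative list. ATPsynE (FBgn0038224; 3R, 14326947 to 14327735) encodes subunit e of the membrane part of the ATP synthase. Its pooled peak had a signal value of 72.2, with 37.1 in replicate 1 and 31.0 in replicate 2, and an IDR between the replicates of 0.0107. ATPsynCF6 (FBgn0016119; 3R, 23355220 to 23356064) encodes coupling factor 6 of the stalk that holds the synthase together. It had 61.7 in the pooled list, 41.6 in replicate 1 and 29.9 in replicate 2, with an IDR of 0.0101. At these sites and at ND-42 the replicates were of like height and neither passed alone, whereas at ND-24, ND-51 and ND-SGDH 1 replicate carried the peak. The ATPsynE summit was 37 bp downstream of its TSS, with Afti 295 bp away on the other strand, and the ATPsynCF6 summit was 91 bp upstream, with Sec13 at 123 bp. Sec13 encodes a protein of the COPII coat and the nuclear pore.

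The single complex IV peak was not at a promoter. COX7C (FBgn0040773; 2R, 10048353 to 10050066) encodes a small subunit of cytochrome c oxidase. Its pooled peak, with a signal value of 130, lay 1949 bp upstream of the TSS in an intron of oys, a lysophospholipid acyltransferase gene. Replicate 1 gave 77.1 (rank 368 of 925), and replicate 2 had no ranked peak at this place. Complexes II and III, with 8 and 9 members, had 0 with a peak in any thresholded list, where 10.6% of all genes had a pooled one. Counts over so few genes were not tested. Their genes include SdhA and SdhB, which form the succinate-oxidizing part of complex II, and the core subunits UQCR-C1 and UQCR-C2 of complex III.

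**Figure D2:**
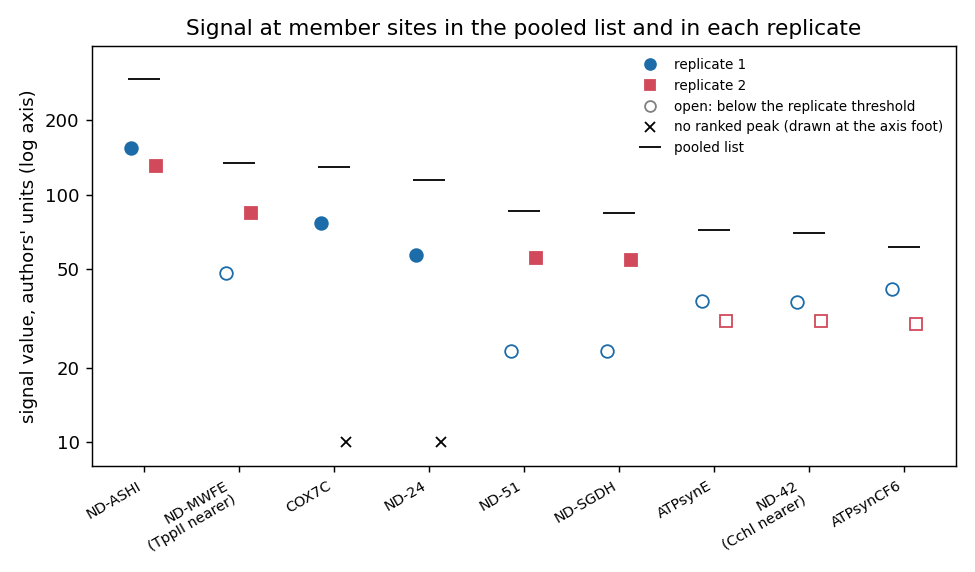
Signal value (authors' units, log axis) at the 9 sites of the pooled list assigned to a member or within 500 bp of its TSS, by gene on the x axis. Short lines are the pooled list, circles replicate 1 and squares replicate 2, filled where the replicate's own thresholded list holds the peak. ND-ASHI is filled in both (155 and 130.5), and COX7C and ND-24 have no ranked peak in replicate 2 (crosses at the foot). A further pooled peak of ND-24, with a signal value of 2.14, is not drawn.

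The promoter sites shared a layout that the choice of genes did not use. All 6 members with a promoter peak in the pooled list had a head-to-head neighbour, at 42 bp for ND-24, 214 bp for ATPsynCF6, 232 bp for ND-51, 258 bp for ATPsynE, 284 bp for ND-SGDH and 522 bp for ND-ASHI. Such a neighbour within 1000 bp was found for 41 of the 88 members (46.6%), for 35.2% of all protein-coding genes and for 37.4% of the 1485 genes with an assigned pooled peak. Of the 866 genes whose assigned pooled peak lay within 500 bp of the TSS, 45.7% had one. COX7C, the seventh member with a pooled peak, had its nearest such neighbour at 4846 bp. With 6 genes this is a description, and no test was made. In the pooled list 87.5% of the 8 member peaks had their summit within 500 bp of the TSS, against 48.1% of all peaks in that list. The median signal value of the 8 was 85.2, against 91.4 over the whole list. Both values count ND-24 with 2 peaks that overlap, of 115 and 2.14.

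**Figure D3:**
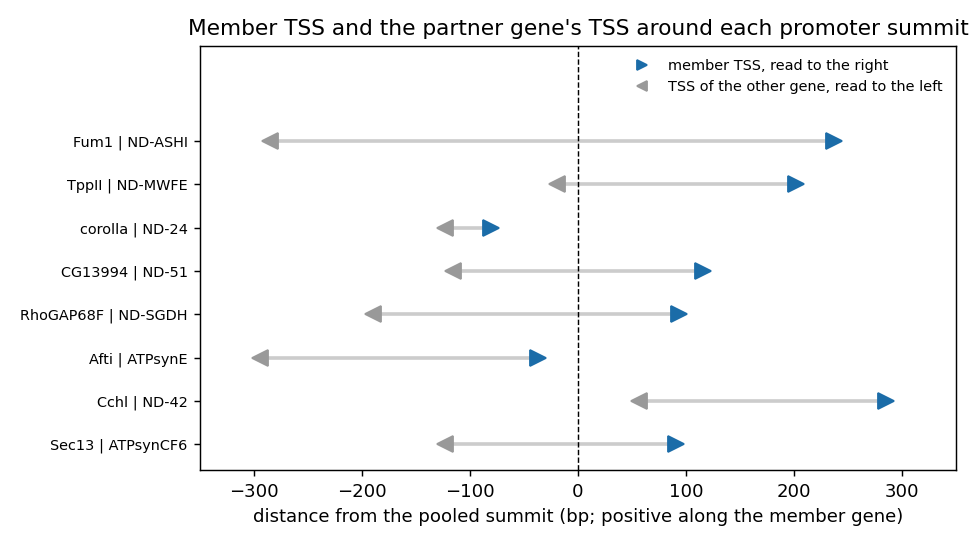
Distance in bp from the pooled summit (dashed line at 0, positive along the member gene) to the nearest TSS of the member (blue, read to the right) and of the other gene (grey, read to the left), for the 8 promoter sites. The summit falls between the 2 start sites for Fum1 and ND-ASHI, CG13994 and ND-51, RhoGAP68F and ND-SGDH, Sec13 and ATPsynCF6, and TppII and ND-MWFE, and outside them for the other 3.

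Below the threshold, the ranked lists hold many weak peaks, and these differed between the replicates at the members. In replicate 1, 78 members had an assigned ranked peak (88.6%, against 88.3% of all genes), and in replicate 2 only 55 did (62.5%, against 80.1%), although replicate 2 had 115142 ranked peaks and replicate 1 had 81037. In the ranked list of the series 62 members had one (70.5%, against 83.3%), and in that of the pooled list 78 (88.6%, against 91.5%). The Wilson 95% intervals lay below the share of all genes in replicate 2 (52.1 to 71.9%) and in the series list (60.2 to 79.0%). An assigned ranked peak was found in both replicates for 51 members, in replicate 1 alone for 27, in replicate 2 alone for 4 and in neither for 6. The same split over all genes is not given here, so these counts describe the members only. No list held a peak assigned to ND-19, ND-MWFE, ATPsynbetaL or ATPsyndelta. An assigned ranked peak within 500 bp of the TSS was found for 49 members in replicate 1 (55.7%, Wilson 95% interval 45.3 to 65.6%). In replicate 2 it was found for 37 (42.0%, interval 32.3 to 52.5%). All genes stood at 58.8% and 57.1%. The strongest such peak of each member had a median signal value of 21.3 in replicate 1 and 14.6 in replicate 2, beside 19.6 and 16.6 over all genes with one. Peaks within 500 bp of a member's TSS but nearer to a neighbour's were not counted, as at ND-MWFE and ND-51 in replicate 2. How far this bears on the shares was not tested.

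By complex, promoter peaks of the ranked lists overlapped in height, and the order of the medians was not the same in the 2 replicates. In complex I, 21 of 40 members had one in replicate 1 (5.85 to 155, median 21.3) and 13 in replicate 2 (9.73 to 54.5, median 14.3). Not counted in replicate 2 were peaks of 130.5 at ND-ASHI, 84.2 at ND-MWFE and 55.4 at ND-51, whose summits were nearer to the neighbour. ND-ASHI enters replicate 2 with another peak, of 14.3. Some replicate 1 peaks, such as that of 48.3 at ND-MWFE, were left out in the same way. Complex V had 9 of 15 in each replicate, with medians of 23.5 and 14.6. Complex IV had 10 of 16 in replicate 1 and 7 in replicate 2, with medians of 20.9 and 14.8. Complex III had 6 and 4 of 9, with medians of 19.4 and 15.0. Complex II had 3 and 4 of 8, with medians of 14.4 and 17.5, the lowest of the 5 complexes in replicate 1 and the highest in replicate 2. In the replicates' thresholded lists only those of ND-ASHI, ND-24 and ND-SGDH were found. A replicate 1 peak of COX7AL2, 500 bp from its TSS with a signal value of 5.73, had an IDR of 0.00092 but is not in the thresholded list. It overlaps a stronger COX7AL2 peak of 70.6, with an IDR of 0.000914, which that list also leaves out.

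**Figure D4:**
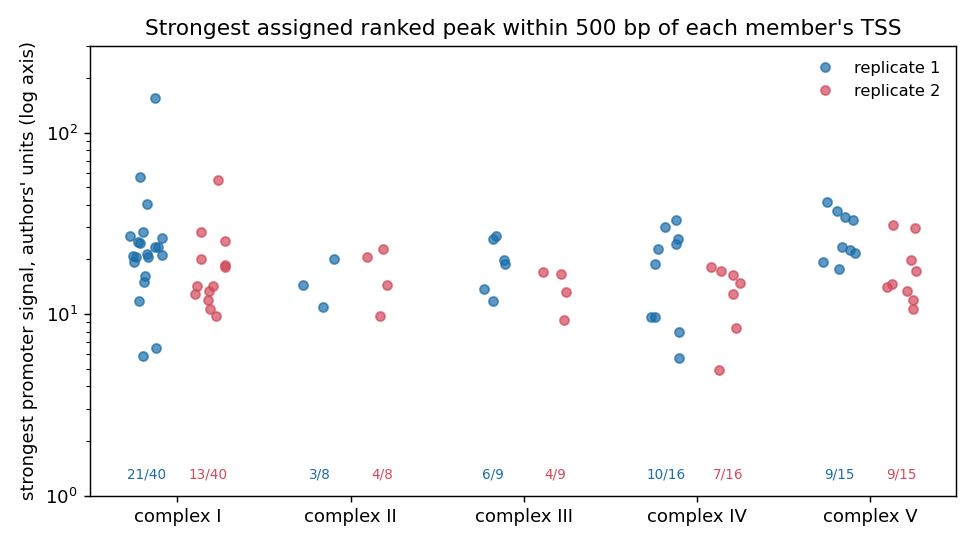
Signal value (authors' units, log axis) of the strongest ranked peak assigned to each member within 500 bp of its TSS, by complex and replicate, with the number of members that had one at the foot. Most points lie between 10 and 40. The replicate 2 peak of 130.5 at ND-ASHI is not drawn, since its summit was nearer to Fum1. ND-ASHI is drawn in replicate 2 with another peak, of 14.3.

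Among members without a thresholded peak, the 2 with the highest ranked values in each complex had them 524 to 55850 bp from their TSS, and the highest of all came from peaks that the thresholded lists leave out. COX7AL2 (FBgn0085201; 2L, 2192525 to 2197912), a paralog of a complex IV subunit gene, had an intronic peak 662 bp from a TSS with a signal value of 110, with 70.6 in replicate 1 and 35.0 in replicate 2. Its IDR was 0.00284, under the threshold of 0.01, yet the conservative list does not hold it, nor a second COX7AL2 peak at 0.0098. Such peaks were few: 47 ranked peaks on the arms met this IDR without being in the conservative list, 2 of them at members. UQCR-11 (FBgn0260008; 3L, 25120709 to 25126171), a small complex III subunit gene, had a peak of 129 in replicate 2 with an IDR of 1.31e-05. That peak lay 13305 bp from the TSS in a transposable element copy annotated as an exon, and it is likewise absent from the thresholded list. UQCR-11 also had 212 of the 724 ranked member peaks of replicate 2, and 18 of 386 in replicate 1. In the ranked list behind the conservative one, the highest values of other members, and of UQCR-11 within this list, were 52.1 for UQCR-11, at 859 bp, and 50.6 for UQCR-6.4L, at 3743 bp, in complex III, and 51.3 for ATPsyngamma, the rotor shaft gene, at 793 bp in complex V. In complex I they were 50.8 for ND-MLRQ, at 55850 bp, and 49.97 for ND-B14.5AL, at 11071 bp. SdhD, a membrane anchor of complex II, reached 50.3 in its coding sequence, 524 bp from the TSS, and SdhB 43.3, at 2655 bp. COX4L reached 49.2, at 886 bp, and ATPsynCF6L 42.9, at 3949 bp. The IDR of each of these was 0.0807 or more. The peaks nearest above the threshold were those of ATPsynCF6 at 0.0101, ATPsynE at 0.0107, ND-42 and COX7AL2 at 0.0111 and ND-51L2 at 0.0456. That of ND-42 had a signal value of only 19.0. It is not the stronger peak of 70.2 nearer to Cchl, which carries the same IDR.

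Of the promoter motifs searched, the core of Motif 1 stood furthest above its share in all promoters at the members. Each gene's window ran from 250 bp upstream to 50 bp downstream of its most upstream TSS, and both strands were read. The core of Motif 1, GGTCACAC, was found in 16 of 88 member promoters (18.2%, Wilson 95% interval 11.5 to 27.5%) and in 7.70% of all protein-coding promoters. Of the 16, 7 were in complex I, 5 in complex IV, 2 in complex V and 1 each in complexes II and III. The DNA replication-related element (DRE), TATCGATA, was found in 9 members (10.2%, against 9.36%), and its core ATCGAT, which overlaps it, in 26 (29.5%, interval 21.0 to 39.8%, against 23.3%). The NRG element, a palindrome described at fly nuclear respiratory genes, was searched as TTACATAA, TTACGTAA, TTATATAA and TTATGTAA and found in 6 members (6.82%, against 5.18%). GAGAG was found in 20 (22.7%, against 29.8%), the homeodomain core TAATTA in 21 (23.9%, against 20.5%) and the Ets core CCGGAAG in 0 (against 1.10%). These member-wide shares mix 24 genes named as paralogs with 64 others. GAGAG was found in 10 of the paralogs and 10 of the others, Motif 1 in 1 and 15, and DRE in 0 and 9. The differences were not tested. Of the 7 members with a pooled peak, 0 had Motif 1, DRE or ATCGAT letters in this window, 1 had an NRG element, 1 had GAGAG and 2 had the homeodomain core. These are counts over 7 genes, and no test was made.

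On the pooled summits themselves, single matches were seen at 4 members and are the capitals in the windows printed above. TAATTA stood 36 bp from the summit of ND-24 and 68 bp from that of ND-51, in a motif present in 15.2% of all 1883 pooled windows on the arms. TTATATAA stood 12 bp from the ND-SGDH summit (NRG element, 4.09% of pooled windows), and TATCGATA 70 bp from the ATPsynE summit (DRE, 2.44%), beyond the end of its promoter window. The windows of ND-ASHI, ATPsynCF6, COX7C, ND-MWFE and ND-42 held none of the 7 motifs. A match is letters in a window and not a site shown to be bound.

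Other genes of the pathway, which the symbol rule leaves out, were counted from lists written from general knowledge. Of 10 oxidative phosphorylation genes with other symbols, 3 had a conservative peak, where 8.25% of all genes did. Cyt-c-p, the cytochrome c of somatic cells, had an intronic peak 911 bp from its TSS (2L, 16720808 to 16720926) with a signal value of 209, with 104 in replicate 1 and 106 in replicate 2, each past its threshold. Among the genes of the pathway counted here, only the ND-ASHI peak had a higher signal value in the conservative list. The gene blw, for the alpha subunit of the ATP synthase, had a promoter peak 127 bp upstream of its TSS (115, with 32.5 and 79.4 in the replicates), which passed in replicate 2 alone. RFeSP, for the Rieske iron-sulfur protein of complex III, had 3 peaks between 3107 and 14242 bp away, of 114, 110.5 and 64.6. That of 114 had 63.8 in replicate 1 and 58.6 in replicate 2, and that of 110.5 had 56.2 and 53.8. The RFeSP peak of 64.6 had 37.1 in replicate 2 and no ranked peak in replicate 1. Of 14 TCA cycle and pyruvate dehydrogenase genes, 2 had a conservative peak. These were Idh3g, at its promoter (127, with 64.3 and 51.6), and muc, with 3 peaks of up to 134. The muc peaks lay 1487 bp or more from its TSS, and 2 of them overlap each other in an intron of chm. Fum1 had a thresholded peak by nearest TSS in replicate 2 only, the peak it shares with ND-ASHI. Of 10 matched assembly factor genes 0 had a conservative peak and Surf1 had a pooled one (68.1, 2751 bp away). Of 11 genes for mitochondrial DNA upkeep and its regulators 0 had a conservative peak, and mtSSB, for the single-stranded DNA-binding protein, had 2 pooled ones (72.8 and 54.0).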

How the data were processed

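The 8 deposited peak lists (4 thresholded, 4 ranked) are on dm6, per the deposited descriptions. The authors' signal value of each peak was used as deposited; the sources used here do not give its scaling, the aligner, the peak caller or read depth. Of the deposited ranked lists, the −log10 of the global IDR was read. In each ranked list 8 further columns, not assigned to a sample, were not used. Genes came from Ensembl release 115, whose first codons read ATG in the RefSeq dm6 sequence for 99.5% of protein-coding genes. Summits were assigned by nearest protein-coding TSS, and tied genes all counted. Replicate values are the strongest ranked peak sharing 1 bp or more. With 1 group of 2 replicates no test was made; shares have Wilson 95% intervals, which treat genes as units and cover counting error only. Replicate values show the spread between 2 embryo samples. Promoter windows were cut from RefSeq sequence at Ensembl TSSs, since no promoter table was used here. Alternatives covered lists, IDR, signal, distance, overlap and motif window. Named were all members with a thresholded peak, per complex the 2 strongest others, the 5 nearest above the IDR threshold, and listed genes with a conservative peak; ND-MWFE, ND-42, CG13994, Surf1, mtSSB, Fum1, UQCR-C1, UQCR-C2 and SdhA, and the members without any peak, were named after their values were seen. Of 18 assembly factors listed, 10 symbols matched. The members and lists were chosen with earlier results of these data known. The assignment routine was tested on simulated data. Python 3.11.15 was used.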

Additional observations from a re-analysis of the deposited data

How the results depend on the processing

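The count of 1 member with a conservative peak was also 1 at an IDR of at most 0.001, above the list's median signal, with TSSs of all gene types and within 1000 bp. It became 7 with the pooled list and 2 with any summit within 500 bp of a TSS. By overlap with the gene body it was 1 as well, but another gene: ATPsynE, by 4 bp of gene end under a peak assigned to spn-B. With 1 replicate left out it ranged from 1 to 3 (3 without replicate 2). The median signal of 293 rests on that single peak; it was 85.2 in the pooled list and ranged from 54.5 to 77.1 with 1 replicate left out, on lists whose scales may differ. Of 7 members with a pooled peak, 3 lay above that list's median signal. Members with thresholded peaks in both replicates numbered 0 by nearest TSS and 1, ND-ASHI, when the replicates' peaks had to share 1 bp or, likewise 1, at least 50% of each width. The promoter share of 100% rests on 1 peak; it was 87.5% in the pooled list and between 66.7% and 100% with 1 replicate left out. The log2 replicate ratio and the DRE share at conservative members, each from 1 gene, did not move under their alternatives. No paired analysis was possible because there is 1 group. Read depth is unknown, so a peak missing from a list is not shown to be absent from the embryo.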

Other observations

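Among members, promoter peaks of the ranked lists, assigned by nearest TSS, were counted apart for those named as paralogs and for the others. Over all protein-coding genes 58.8% had one in replicate 1 and 57.1% in replicate 2. A promoter peak was found in 11 of 24 paralogs in replicate 1 (45.8%, Wilson 95% interval 27.9 to 64.9%) and in 18 in replicate 2 (75.0%, interval 55.1 to 88.0%). Of the 64 other members, 38 had one in replicate 1 (59.4%, interval 47.1 to 70.5%) and 19 in replicate 2 (29.7%, interval 19.9 to 41.8%). The interval of the 64 others in replicate 2 lies below the share of all genes, and the other 3 intervals include it. Peaks near a member's TSS but nearer to a neighbour's were left out, as at ND-MWFE and ND-51 in replicate 2. How often this happened in each group was not counted, and how far it bears on the shares was not tested. The pooled list had an assigned peak at 0 of the 24 and 7 of the 64, where 10.6% of all genes had one. Replicates of 1 group have no contrast, the grouping was made after the data were seen, and the difference was not tested.

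ND-24 has a second pooled peak with a signal value of 2.14, 54 bp from its downstream TSS, which carries the same IDR (0.000696) as the peak of 115 that it overlaps. Peaks with a signal value under 10 numbered 37 in the pooled list, 26 in the conservative list, 30 in replicate 1 and 17 in replicate 2, and all of these overlap another peak of their own list. Counts of peaks per gene can therefore include such pairs. The ND-24 peak is the only member peak under 10 in the pooled list, and it does not change the count of members there. Whether such pairs change the counts over all genes was not tested.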
